A study of Mus musculus with 4 samples.

Results

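Mitochondrial ribosomal proteins are encoded in the nucleus by genes named Mrpl (large subunit) and Mrps (small subunit). They were taken as every gene whose single annotated symbol starts with Mrpl or Mrps followed by a number, each read from its brightest probe set (by mean of the 4 arrays). This gave 77 of the 19938 genes tested. Of these, 48 were Mrpl genes and 29 were Mrps genes. Mrpl53 shared its only probe set with another gene and was not read.

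The arrays compare RNA of naive CD8 T cells, sorted by flow cytometry from mouse spleen, between Klf13 knockout (KO) mice and wild-type (WT) mice. Both genotypes were on the BALB/c strain, with 2 arrays each, and the series asks how KLF13, a DNA-binding zinc-finger protein related to SP1, bears on memory-like CD8 T cells. The labels give no age, sex or treatment and do not describe the deleted allele, and they are silent on pooling and on the number of animals. Since separate animals are not stated, p-values reflect the spread of these samples alone, and that spread may be technical. Values are log2 probe-set values as RMA gives them. They rank the arrays for 1 gene and do not rank genes against each other.

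The mitochondrial ribosome makes the few proteins that the mitochondrial genome encodes, all of them subunits of the respiratory chain and the ATP synthase. Its RNA comes from mitochondrial DNA, while its proteins are made in the cytosol and imported, so the organelle's translation depends on nuclear genes spread over many chromosomes. Many of the proteins have a relative in the bacterial ribosome and others occur only in mitochondria. Naive T cells are small and quiescent, and mitochondrial translation is one of the activities that T cells raise when they are activated.

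Promoter sequences are shown for 4 members because KLF13 and its relatives bind GC-rich boxes, and because these genes span the range of differences: Mrpl42 and Mrpl57 had the lowest KO minus WT values among the Mrpl genes, Mrps31 the lowest among the Mrps genes, and Mrpl14 the highest of all. Each run is the 150 bases before the gene's start on its own strand, from RefSeq on GRCm38.p6, and capitals mark a GC box (GGGCGG or its reverse complement CCGCCC). The runs are chr10:95501950-95502099 on the minus strand for Mrpl42, chr14:57826089-57826238 on the plus strand for Mrpl57, chr8:22411190-22411339 on the plus strand for Mrps31 and chr17:45686199-45686348 on the plus strand for Mrpl14.
Mrpl42: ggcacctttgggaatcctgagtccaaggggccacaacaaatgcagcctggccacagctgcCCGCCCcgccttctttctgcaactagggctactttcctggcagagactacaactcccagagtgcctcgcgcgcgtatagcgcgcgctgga
Mrpl57: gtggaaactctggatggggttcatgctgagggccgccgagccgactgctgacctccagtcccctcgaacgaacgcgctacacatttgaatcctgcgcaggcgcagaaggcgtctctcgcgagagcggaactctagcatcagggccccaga
Mrps31: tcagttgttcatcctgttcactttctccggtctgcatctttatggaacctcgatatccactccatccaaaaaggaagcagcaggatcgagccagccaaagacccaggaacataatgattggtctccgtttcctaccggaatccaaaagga
Mrpl14: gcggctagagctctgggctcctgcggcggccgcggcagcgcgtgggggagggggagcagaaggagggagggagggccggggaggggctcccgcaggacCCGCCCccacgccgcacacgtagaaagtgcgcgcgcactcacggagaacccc
The member with the lowest difference and the member with the highest difference each held 1 GC box in the stretch shown, and the other two held none there.

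Most mitochondrial ribosomal protein genes were slightly lower in KO than in WT cells, and none passed the gene test. Of the 77 members, 66 had a lower mean in KO cells and 11 a higher one, against a background of 45.9% of all genes with a lower mean in KO. The median log2 difference (KO minus WT) was -0.14, which is 1.10-fold lower in KO, against 0.015 over all 19938 genes. At a Benjamini-Hochberg adjusted p under 0.05 in limma, 0 members were called, where 2.25% of all genes were called (1.05% lower and 1.19% higher in KO). At an unadjusted p under 0.05, 19 members were lower and 0 higher, against 8.75% and 7.85% of all genes. After a further quantile normalization 13 members were lower at that limit, against 8.40% of all genes. The members' median difference was -0.06 without KO replicate 1 and -0.20 without KO replicate 2. It was -0.13 without WT replicate 1 and -0.15 without WT replicate 2. Because these are bulk samples, fewer cells of a type and less RNA per cell cannot be told apart.

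In 45 members both KO arrays lay below both WT arrays, against 23.2% of all genes, and in 1 member both lay above, against 24.4% of all genes. The groups overlapped in the remaining 31. Members are brighter than most genes, however, and all 77 had a mean level above the median gene. Genes in this range of levels were also lower in KO cells, so a comparison with all genes mixes level with membership. For each member, genes of like level were therefore taken as all non-members within 0.25 log2 units of its mean level (344 to 1311 genes per member).

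Genes of like level had a median log2 difference of -0.08, and on average 68.8% of them were lower in KO cells. The members lay a further 0.05 below: the median of member minus its like-level median was -0.05 on the log2 scale, and 54 of the 77 members lay below it. Both KO arrays lay below both WT arrays for 41.2% of like-level genes on average and for 58.4% of members. At an unadjusted p under 0.05, 17.7% of like-level genes and 24.7% of members were lower in KO. The median SD of a member between arrays of 1 genotype was 0.10 among KO arrays and 0.05 among WT arrays. The gap between the members and genes of like level was not tested.

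**Figure D1:**
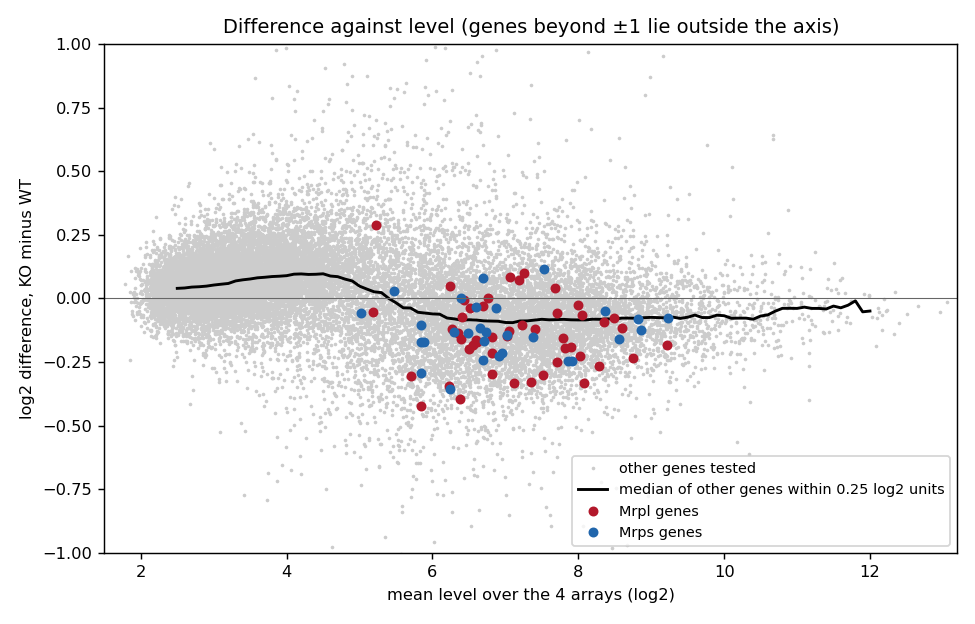
The log2 difference (KO minus WT, vertical axis) of each gene is plotted against its mean level over the 4 arrays (log2, horizontal axis), with the other genes in grey, Mrpl genes in red, Mrps genes in blue and the running median of the other genes as a black line. The running median lies near -0.08 at the levels of most members, and 54 of the 77 members lie below the median of their like-level genes.

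The size of the shift depended on which KO array was read. On KO replicate 1, 72 of the 77 members were below the mean of the WT arrays, with a median of -0.20 on the log2 scale, while on KO replicate 2, 56 were, with a median of -0.06. KO replicate 1 was below KO replicate 2 for 63 members and was the lowest of the 4 arrays for 57. Without KO replicate 1 the members' median difference was -0.06 and 56 members were lower in KO, and without KO replicate 2 they were -0.20 and 72. The same split held for genes of like level, whose median difference from the WT mean was -0.15 on KO replicate 1 and -0.01 on KO replicate 2. Relative to these genes, the members lay 0.06 lower on KO replicate 1 (median -0.06, 50 of 77 below) and 0.05 lower on KO replicate 2 (median -0.05, 54 of 77 below). KO replicate 2 alone was below both WT arrays for 46 members (59.7%), against 43.8% of like-level genes on average and 36.0% of all genes. Over all probe sets the upper quartile was 6.52 on KO replicate 1, 6.63 on KO replicate 2, and 6.67 and 6.66 on the WT arrays. The part of this brightness difference in the members' shift was not tested.

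**Figure D2:**
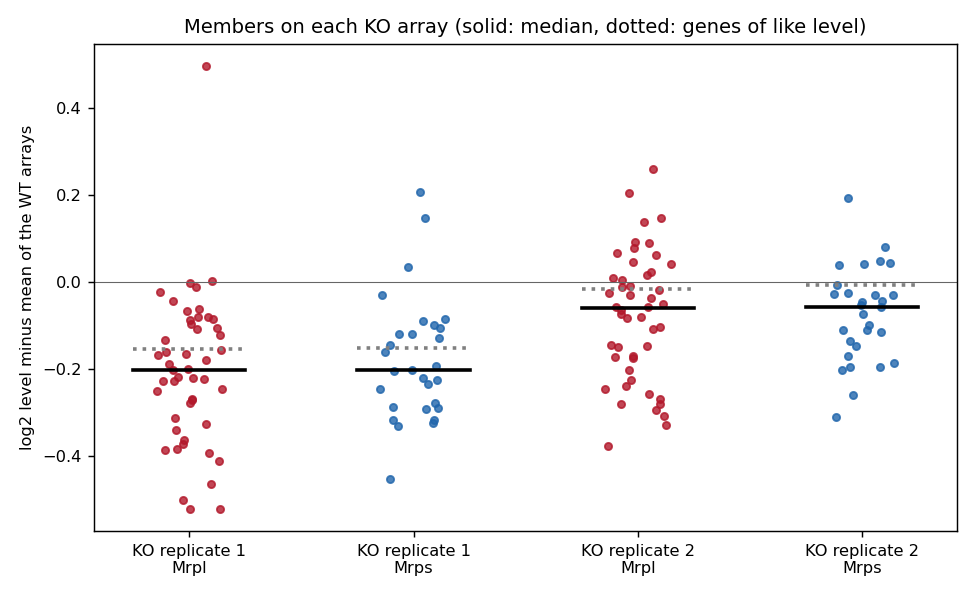
Each point is a member's log2 level on a KO array minus its mean on the WT arrays, for Mrpl genes (red) and Mrps genes (blue), with the median of the members as a solid bar and that of genes of like level as a dotted bar. On KO replicate 1 the members' medians lie near -0.20 and on KO replicate 2 near -0.06, and the dotted bars move with them.

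The subunits covered much the same range of differences. Of the 48 Mrpl genes, 41 were lower in KO cells, with a median log2 difference of -0.15 and a range of -0.42 to 0.29. Of the 29 Mrps genes, 25 were lower, with a median of -0.13 and a range of -0.36 to 0.11. Both KO arrays lay below both WT arrays for 29 Mrpl genes (60.4%) and 16 Mrps genes (55.2%), against 41.5% and 40.7% of their like-level genes on average and 23.2% of all genes. On KO replicate 2 alone the medians were -0.06 for both. The names do not follow the structure throughout: in the assembled ribosome the products of Mrps30 and Mrps18a sit in the large subunit, and the product of Mrps36 belongs to the alpha-ketoglutarate dehydrogenase complex. Placed by structure, the medians were -0.15 for 50 large-subunit genes and -0.13 for 26 small-subunit genes. Sorted by ancestry, 48 genes with a bacterial relative had a median of -0.13 (41 lower) and 28 mitochondria-specific genes one of -0.15 (24 lower). At an unadjusted p under 0.05, 9 of the first (18.8%) and 10 of the second (35.7%) were lower in KO, against 17.5% and 18.1% of their like-level genes and 8.75% of all genes. The share of the first was thus near its background. The differences between subunits and between classes were not tested.

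**Figure D3:**
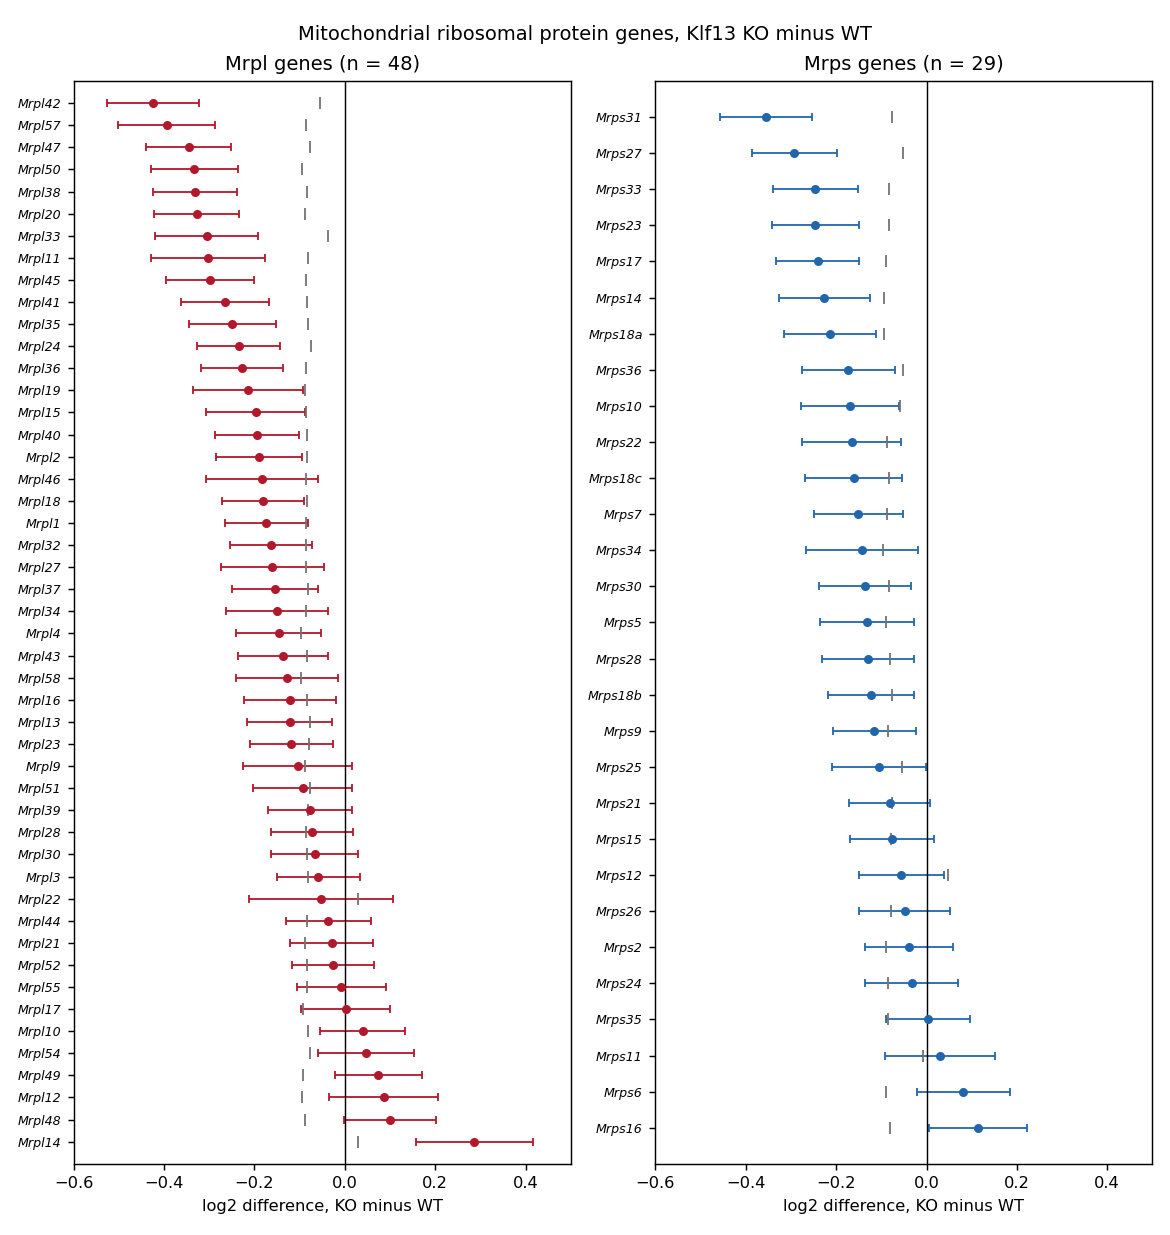
The log2 difference (KO minus WT, horizontal axis) of each Mrpl gene (left, red) and each Mrps gene (right, blue) is given with its limma standard error as a bar and the median of its like-level genes as a grey tick. The distributions cover much the same range, from -0.42 to 0.29 for Mrpl genes and from -0.36 to 0.11 for Mrps genes.

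In each subunit, 8 of the members named below were picked for the lowest p among those whose groups did not overlap. The lack of overlap in these members is therefore fixed by the choice. Among mitochondria-specific proteins of the large subunit, Mrpl42 had the lowest difference. Its level (probe set 10372078) was 5.54 and 5.73 in KO cells, against 6.11 and 6.01 in WT cells, on the log2 scale. The difference was -0.42 (SE 0.10), with a limma adjusted p = 0.0689. It lay well below the -0.05 of its 1094 like-level genes. Mrpl57, another small mitochondria-specific protein, measured 6.06 and 6.31 in KO cells, against 6.54 and 6.62 in WT cells (difference -0.39, SE 0.11, limma adjusted p = 0.109). For Mrpl57, KO replicate 1 was the lowest array.

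Mrpl50 was at 6.88 and 7.03 in KO cells, against 7.30 and 7.28 in WT cells (difference -0.33, limma adjusted p = 0.124). Mrpl38, of the central protuberance, was at 7.86 and 7.96 in KO cells, against 8.26 and 8.22 in WT cells (difference -0.33, limma adjusted p = 0.116). In both genes KO replicate 1 was the lower KO array. Mrpl41 was at 8.16 and 8.13 in KO cells, against 8.49 and 8.34 in WT cells (difference -0.27, limma adjusted p = 0.210).

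Mrpl47 and Mrpl45 lie at the polypeptide exit tunnel, where new chains leave for the inner membrane. Other large-subunit proteins of that region varied. Mrpl24 differed by -0.24, with both KO arrays below both WT arrays, and Mrpl23 by -0.12. Mrpl39 differed by -0.08, Mrpl22 by -0.05, Mrpl44 by -0.04 and Mrpl17 by 0.002. These were named after their values were seen. Mrpl47, a relative of a bacterial tunnel-exit protein, was at 6.02 and 6.10 in KO cells, against 6.36 and 6.45 in WT cells (difference -0.35, SE 0.09, limma adjusted p = 0.107). Mrpl45, which contacts the inner membrane, was at 6.74 and 6.59 in KO cells, against 6.98 and 6.94 in WT cells (difference -0.30, limma adjusted p = 0.164). Mrpl45 was lower on KO replicate 2 than on KO replicate 1, unlike most members. Mrpl20, whose bacterial relative binds ribosomal RNA early in assembly, was at 7.16 and 7.22 in KO cells, against 7.57 and 7.47 in WT cells (difference -0.33, limma adjusted p = 0.120).

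The stalk of the large subunit, which recruits translation factors, held members at both ends of the order. Mrpl11, at its base, was at 7.17 and 7.57 in KO cells, against 7.68 and 7.66 in WT cells (difference -0.30, SE 0.13, limma adjusted p = 0.268), and most of that difference came from KO replicate 1. Mrpl12, the stalk protein that also binds mitochondrial RNA polymerase, was at 6.94 and 7.28 in KO cells, against 6.97 and 7.08 in WT cells. The groups overlapped and the difference was 0.09 (limma adjusted p = 0.777). Its sign turned without KO replicate 2 (-0.09) and when each array was centred on its median (-0.0002).

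Mrpl3 and Mrpl58 act at the catalytic centre and in the release of stalled chains. Mrpl3, near the peptidyl transferase centre, was at 7.63 and 7.73 in KO cells, against 7.73 and 7.74 in WT cells (difference -0.06, limma adjusted p = 0.807; 0.015 after a further quantile normalization). Mrpl58, a peptidyl-tRNA hydrolase built into the large subunit, was at 6.84 and 7.13 in KO cells, against 7.06 and 7.16 in WT cells (difference -0.13, limma adjusted p = 0.626; 0.016 without KO replicate 1). KO replicate 2 lay within 0.1 of both WT arrays for each.

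At the other end of the order, Mrpl14, at the interface of the subunits, was the 1 member whose KO arrays both lay above both WT arrays. It was at 5.57 and 5.16 in KO cells, against 5.07 and 5.08 in WT cells (difference 0.29, SE 0.13, limma adjusted p = 0.303). The 2 KO arrays differed from each other by more than KO replicate 2 differed from the WT arrays. Mrpl48, of the central protuberance, was at 7.20 and 7.41 in KO cells, against 7.19 and 7.23 in WT cells (difference 0.10, limma adjusted p = 0.679), and this turned to -0.003 without KO replicate 2.

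**Figure D4:**
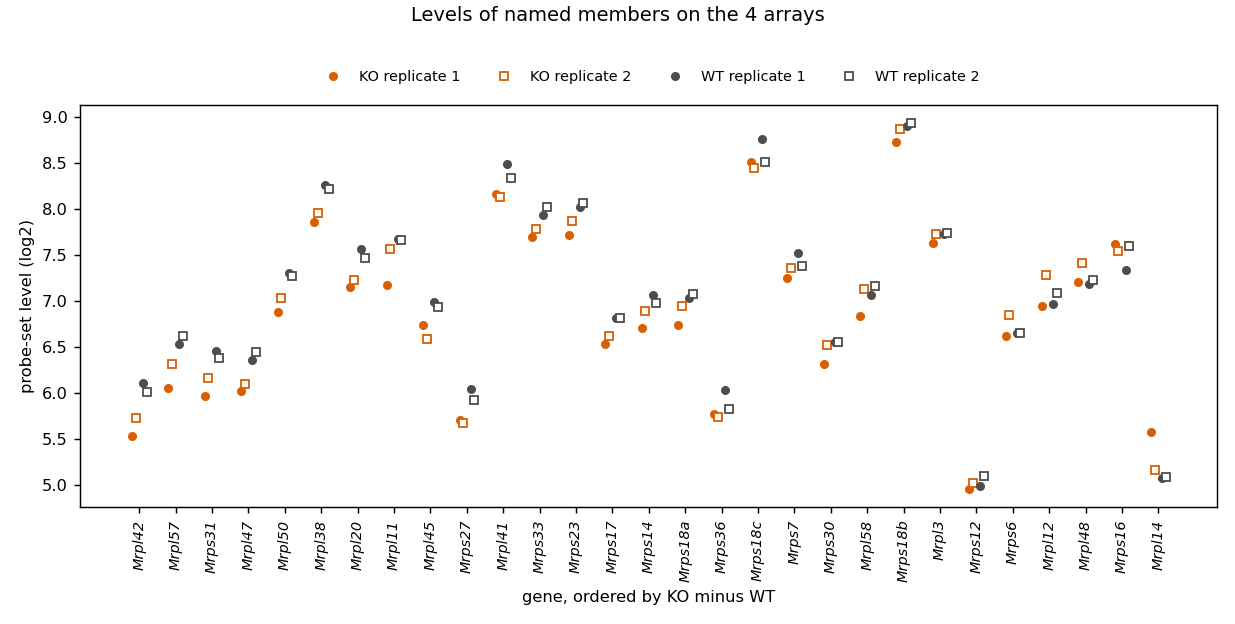
The log2 probe-set level of 29 named members is plotted for the KO arrays (orange) and the WT arrays (grey), with circles for replicate 1 and squares for replicate 2, and genes ordered by KO minus WT. From Mrpl42 on the left the KO points lie below the WT points, while at the right end Mrpl14 has both KO points above. In each subunit, 8 of the genes were picked among members whose groups did not overlap.

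In the small subunit the lowest difference was that of Mrps31, a mitochondria-specific protein. It was at 5.97 and 6.16 in KO cells, against 6.46 and 6.38 in WT cells (difference -0.36, SE 0.10, limma adjusted p = 0.119). Mrps27, a pentatricopeptide-repeat protein, was at 5.71 and 5.67 in KO cells, against 6.04 and 5.93 in WT cells (difference -0.29, SE 0.09, limma adjusted p = 0.160). The KO arrays of Mrps27 lay closer together than its WT arrays, and its like-level genes had a median of -0.05. The mitochondria-specific Mrps33 and Mrps23 both had a difference of -0.25 (limma adjusted p = 0.234 and 0.244).

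Small-subunit proteins with bacterial relatives included Mrps17 and Mrps14. Mrps17 was at 6.53 and 6.62 in KO cells, against 6.82 and 6.82 in WT cells (difference -0.24, limma adjusted p = 0.234). Mrps14 was at 6.71 and 6.89 in KO cells, against 7.07 and 6.98 in WT cells (difference -0.23, limma adjusted p = 0.298). Mrps7, a protein of the subunit's head, differed by -0.15 (limma adjusted p = 0.491). Mrps7 was named by its role, and both its KO arrays lay below both WT arrays.

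Mrps12, whose bacterial relative lies at the decoding centre and bears on accuracy, was at 4.96 and 5.02 in KO cells, against 4.99 and 5.10 in WT cells (difference -0.06, limma adjusted p = 0.820). Its probe set had the lowest mean of all members, and its groups overlapped. Mrps16 was at 7.62 and 7.55 in KO cells, against 7.33 and 7.60 in WT cells (difference 0.11, limma adjusted p = 0.659), and this turned to -0.02 without WT replicate 1. Mrps6 was at 6.62 and 6.84 in KO cells, against 6.65 and 6.65 in WT cells (difference 0.08, limma adjusted p = 0.748), and this turned to -0.03 without KO replicate 2 and to -0.005 on median centring. These were the highest of the Mrps genes, and in both the groups overlapped.

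The 3 paralogs of the bacterial protein S18 occupy different places in the mitochondrial ribosome, and all were somewhat lower in KO cells. Mrps18a, in the large subunit, was at 6.74 and 6.95 in KO cells, against 7.04 and 7.08 in WT cells (difference -0.21, limma adjusted p = 0.333). Mrps18b was at 8.73 and 8.87 in KO cells, against 8.91 and 8.93 in WT cells (difference -0.12, limma adjusted p = 0.573). Mrps18c was at 8.51 and 8.44 in KO cells, against 8.76 and 8.51 in WT cells (difference -0.16, limma adjusted p = 0.497). In none did the groups overlap, though in each a KO array lay within 0.1 of the nearest WT array. Mrps30, also in the large subunit, differed by -0.14 (limma adjusted p = 0.554), and Mrps36 by -0.17 (limma adjusted p = 0.445).

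Of the 77 members, 8 had more than 1 probe set, and in 6 of these the probe sets had the same sign. The dimmer probe set of Mrpl47 gave 0.21 where the one used gave -0.35, so its difference rests on 1 of 2 probe sets. The other exception was Mrpl51 (-0.09 and 0.04), named after its values were seen. For Mrpl41, Mrps33 and Mrps36 the second probe sets gave -0.16, -0.16 and -0.28.

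By the RefSeq position of each gene, the members lay on 17 chromosomes. The probe sets themselves were not placed on the genome, so whether each one reads that locus was not checked. Chromosome 7, which carries Klf13, held 6 of them, of which 3 were lower and 3 higher in KO cells (median -0.03, range -0.18 to 0.10). They include Mrpl46 and Mrps11, named after their values were seen, which follow each other among the protein-coding genes of the RefSeq table. Mrpl46 was at 6.28 and 6.66 in KO cells, against 6.63 and 6.68 in WT cells (difference -0.18, limma adjusted p = 0.505). Mrps11 was at 5.66 and 5.31 in KO cells, against 5.51 and 5.40 in WT cells (difference 0.03, limma adjusted p = 0.933). The groups overlapped for both neighbours.

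Promoters of 68 members were matched by symbol in the RefSeq table, as 74 windows of 250 bases before to 50 after a start. Both strands were searched for fixed letters. The core of ETS-family sites, CCGGAA, bound by GABPA, a regulator of nuclear genes for mitochondria, stood in 56.8% of the members' windows, against 14.9% of all 32851 windows and 19.5% of the windows of other tested protein-coding genes. A site of NRF1, another such regulator, searched as GCATGCGC, stood in 10.8%, against 2.71% and 3.83%. The letters AAGATGGCG of YY1 sites stood in 10.8%, against 1.40% and 1.94%. The GC box stood in 52.7%, against 35.7% and 49.9%. GCATGCGC contains no GC box or ETS core, though windows can hold several of these motifs.

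Members with and without a motif had overlapping differences. The median log2 difference was -0.14 in 39 genes with the ETS core and -0.15 in 29 without, and -0.13 in 34 genes with a GC box and -0.14 in 34 without. It was -0.09 in 8 genes with the NRF1 letters and -0.15 in 60 without, and -0.22 in 8 genes with the YY1 letters and -0.13 in 60 without. The ranges overlapped in each case, running from -0.42 to 0.29 in genes with a GC box and from -0.36 to 0.09 in genes without. These are matches of letters and no test was made on them.

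Other nuclear genes that serve mitochondrial translation were also mostly lower in KO cells, and 1 of them was called. Over all genes 1.05% were called lower in KO, and 45.9% had a lower mean in KO. Of the genes of like level to the members, 68.8% were lower on average. The lists were not tested against the members. Of 26 measured genes of mitoribosome assembly, 25 were lower in KO cells, with 0 called and a median log2 difference of -0.18, against -0.08 in their like-level genes. Both KO arrays lay below both WT arrays for 18 of them (69.2%), against 35.7% of their like-level genes on average and 23.2% of all genes. Fastkd2, an RNA-binding protein needed for the large subunit's RNA, was at 7.21 and 7.34 in KO cells, against 7.74 and 7.67 in WT cells (difference -0.43, limma adjusted p = 0.0511). Rpusd3, of the pseudouridine synthase family, differed by -0.46 (limma adjusted p = 0.0570) and Mterf4, which acts with an RNA methyltransferase, by -0.40 (limma adjusted p = 0.0887).

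Of 16 translation factors, 15 were lower, and the median was -0.15, against -0.09 in like-level genes. Among the 16, 1 was called, where 1.05% of all genes were called lower in KO. The called gene was Mtrf1, a mitochondrial release factor, which fell to 3.71 and 3.48 in KO cells, against 4.11 and 4.16 in WT cells (difference -0.54, SE 0.10, limma adjusted p = 0.0284). It is a dim gene on these arrays. Gfm2, which recycles ribosomes, differed by -0.35 (limma adjusted p = 0.0927) and Guf1, an elongation-type GTPase, by -0.33 (limma adjusted p = 0.135).

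Of 19 genes of mitochondrial aminoacyl-tRNA synthetases and of the amidotransferase that works with them, which charge the organelle's tRNAs, 18 were lower, with 0 called and a median of -0.20, against -0.08 in like-level genes. The smallest p-values were those of Sars2 (-0.51, limma adjusted p = 0.0662), Wars2 (-0.34, limma adjusted p = 0.162) and Rars2 (-0.30, limma adjusted p = 0.163). Of 10 genes of mitochondrial DNA transcription and replication, 9 were lower, with 0 called and a median of -0.23. They include Polg2, the accessory subunit of the DNA polymerase (-0.45, limma adjusted p = 0.0598), the single-stranded DNA-binding protein gene Ssbp1 (-0.39, limma adjusted p = 0.0733) and the transcription factor gene Tfb2m (-0.34, limma adjusted p = 0.126). On KO replicate 2 alone the medians of the assembly, factor, synthetase and transcription lists were -0.12, -0.10, -0.15 and -0.11, and on KO replicate 1 they were -0.27, -0.23, -0.27 and -0.32.

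Of the 4 measured mitoribosomal proteins without Mrp names, 3 were lower with 0 called (median -0.25). Ptcd3 differed by -0.30 (limma adjusted p = 0.171), Chchd1 by -0.33 (limma adjusted p = 0.251) and Dap3 by -0.19 (limma adjusted p = 0.386). By contrast in size, 10 regulators of mitochondrial biogenesis had a median of -0.06, against -0.08 in like-level genes, with 0 called. Myc differed by -0.18, Nrf1 by -0.13 and Gabpb2 by -0.11 (limma adjusted p = 0.382, 0.513 and 0.596). The subunits encoded by mitochondrial DNA, which the mitochondrial ribosome makes, were read for COX2 (-0.19, limma adjusted p = 0.438) and ND3 (-0.22, limma adjusted p = 0.393), a list added after the data were seen. The groups overlapped for both.

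The cytosolic ribosome is a separate machine with its own proteins. Its genes were taken by symbol (Rpl or Rps followed by a number), and 45 of the 56 measured were lower in KO cells. Of these genes 0 were called, and the median was -0.07, against -0.04 in like-level genes. The list includes paralogs such as Rpl3l, Rpl10l and Rpl39l, named after their values were seen. These paralogs were dim (mean levels 3.33, 3.49 and 2.69) and higher in KO cells. Rps14 (-0.40, limma adjusted p = 0.0603), Rpl14 (-0.31, limma adjusted p = 0.132) and Rpl27 (-0.26, limma adjusted p = 0.202) had the smallest p-values. Both KO arrays lay below both WT arrays for 48.2% of them, where the share was 37.9% among their like-level genes and 23.2% among all genes. Their medians were -0.06 on KO replicate 1 and -0.10 on KO replicate 2. The members had -0.20 and -0.06, and genes of like level to the members had -0.15 and -0.01. For COX2 and ND3 the medians were -0.11 and -0.29. Cytosolic ribosomal protein genes were brighter than the members (median level 10.8, against 6.9). Their like-level genes were not read on each KO array, so this comparison mixes level with membership. The difference between the 2 ribosomes was not tested.

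**Figure D5:**
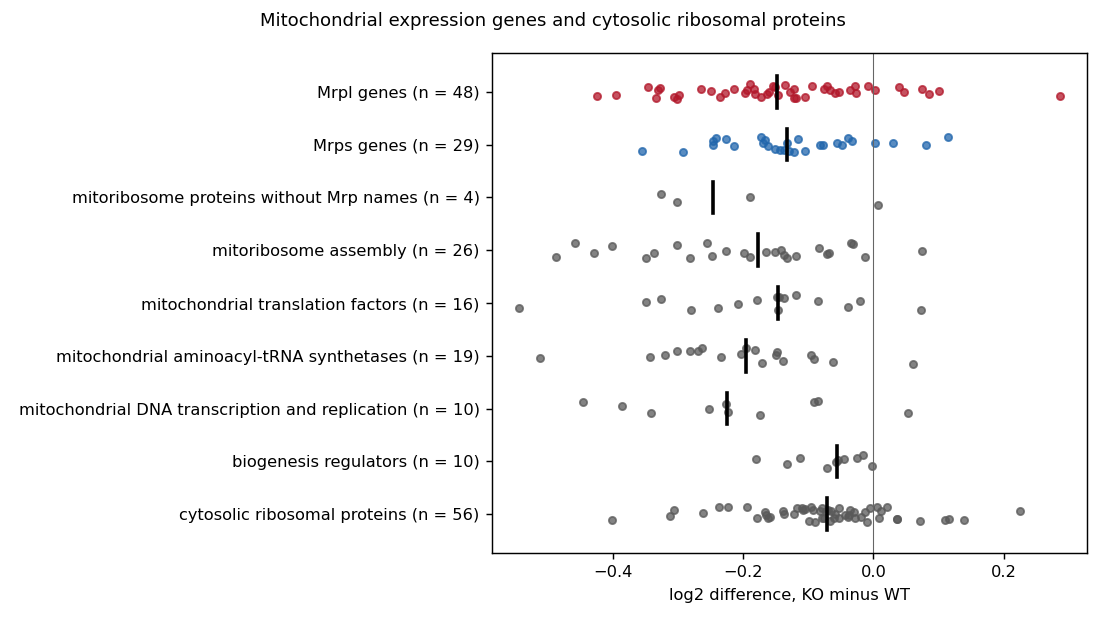
Each point is a gene's log2 difference (KO minus WT, horizontal axis) and each black bar the median of its list, with Mrpl genes in red, Mrps genes in blue and the other lists in grey. The lists that serve mitochondrial translation and mitochondrial DNA have medians between -0.25 and -0.13, while biogenesis regulators and cytosolic ribosomal proteins lie at -0.06 and -0.07.

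Klf13 itself was at 5.46 and 5.43 in KO cells, against 7.01 and 7.15 in WT cells, which is 3.10-fold lower in KO (log2 difference -1.63, SE 0.10, limma adjusted p = 3.75e-05). The position of its probe set relative to the deletion was not analysed here. The CD8 chains Cd8a (11.1 and 11.1 in KO cells, 11.3 and 11.1 in WT cells) and Cd8b1 (10.9 and 10.9 in KO cells, 10.9 and 11.0 in WT cells) are the genes that define the labelled cells, and neither was called. Most listed markers of other cells were higher in KO cells. The log2 of the summed level of 9 neutrophil markers was 9.81 and 9.94 in KO cells, against 8.10 and 8.34 in WT cells, with 9 of 9 higher and 4 called. The sum rests on the 4 called granule genes Mpo, Elane, Ctsg and Prtn3 (differences of up to 1.97), while Ngp, S100a8, S100a9, Ltf and Camp differed by 0.06 to 0.33, and the median of the list was 0.33. These markers were named after their values were seen. For 7 B cell markers the log2 sum was 9.91 and 9.92 in KO cells, against 9.25 and 9.28 in WT cells, with 7 of 7 higher and 2 called. Most of that sum came from Ighm (9.34 and 9.28 in KO cells, 8.51 and 8.51 in WT cells), while Ms4a1 differed by 0.01 and its groups overlapped. For 8 myeloid markers the log2 sum was 7.91 and 8.14 in KO cells, against 7.63 and 7.60 in WT cells, with 7 of 8 higher and 4 called. The exception, Cd68, differed by -0.34, and both its KO arrays lay below both WT arrays. Ighm, Ms4a1 and Cd68 were named after their values were seen. For 6 CD8 T cell markers the log2 sum was 13.10 and 13.14 in KO cells, against 13.15 and 13.15 in WT cells, with 4 lower, 2 higher and 0 called. Thy1 differed by -0.34 (limma adjusted p = 0.109) and Cd3d by -0.20, with both KO arrays below both WT arrays. Cd3g and Cd3e differed by 0.08 and 0.07, with both KO arrays above both WT arrays. Thy1, Cd3d, Cd3g and Cd3e were named after their values were seen. The scale has no zero, so no marker was called absent, and the part of these cells in the members' differences was not tested.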

How the data were processed

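RNA of 4 samples was hybridised to 1-colour Affymetrix arrays, 1 per sample. RNA had an integrity number above 9, per the labels. The authors deposited 1 log2 value per probe set and array, and per the submitters' processing notes RMA and Partek were used, with no versions given. RMA compresses differences of dim genes. GEO's platform annotation paired 21789 of 35556 probe sets with 1 gene, and symbols were updated by gene identifier to RefSeq names (GRCm38.p6). Depth of an array is not a count; the number of arrays limits the precision.

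All 19938 genes were fitted with limma 3.58.1 in R 4.3.3 (lmFit, eBayes, KO minus WT, two-sided, Benjamini-Hochberg over all genes, threshold 0.05, no filter on level, prior degrees of freedom 8.06). The fit was also run on simulated data with independent noise, no dimmer array and changes larger than those of the members. That run therefore does not bear on changes of the members' size. Errors are limma standard errors (SE). Like-level medians and list medians are descriptions without a test. Genes of a list were counted by the same fit.

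The members and lists were chosen with earlier results of these data known. Named were Klf13, any member with an adjusted p under 0.05, in each subunit by symbol the 8 members with the lowest p among those whose groups did not overlap and the 2 with the highest difference, 13 members fixed by role, and the 3 genes of each mitochondrial or ribosomal list with the smallest p. Alternatives were other summaries of probe sets, the brighter 9969 genes, further normalization, centring, a variance trend, a replicate block, wider like-level bands, placement by structure, and each array left out.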

Additional observations from a re-analysis of the deposited data

How the results depend on the processing

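With only 2 arrays per genotype, and with KO replicate 1 dimmer in the upper range than the others, small shifts rest on few arrays. The members' median stayed negative in every alternative, and the count of members below genes of like level stayed between 50 and 55 of 77 (59 of 85 probe sets when all were used). With each array left out in turn, the genes called numbered 264 to 1536, the members called 0 to 8, the members' median was -0.201 to -0.057, the Mrpl median -0.201 to -0.061 and the Mrps median -0.203 to -0.057. The genes called were 264 without KO replicate 1, 1536 without KO replicate 2 and 277 without WT replicate 1. Each fit with an array left out has 1 array in a group, so its calls are not weighed here. Without KO replicate 2 the members' median difference was -0.201, against 0.011 over all genes, and 72 of the 77 members were lower. The median of member minus its like-level median was -0.061 there. The named members ranged from -0.52 (Mrpl57) to 0.49 (Mrpl14) in that setting. Median centring moved the median difference of all genes to -0.07, against 0.015. It gave 1088 called genes, which is 5.46% of all genes (21.8% of those called were higher in KO, against 53.1% as reported). Of the 77 members 9 were called, all lower, and the medians were -0.22 (members), -0.23 (Mrpl) and -0.22 (Mrps). The variance trend gave 831 genes (4.17% of those tested) and 1 of the 77 members (Mrpl38). The brighter 9969 genes gave 606 genes (6.08% of those tested) and 1 of the 77 members (Mrpl42). With a further quantile normalization 0 members and 1.65% of all genes were called, and the members' median was -0.07. The replicate block gave 1187 genes (5.95%), against 448 (2.25%) without it, and 4 of the 77 members (Mrpl42, Mrpl57, Mrps31 and Mrpl47). Same-numbered arrays share only a number here (correlation of their deviations 0.0074 across genes), so the 2 genotypes are not taken as paired. Of the named members, signs turned with an array left out for Mrpl12 (-0.0865 to 0.258), Mrpl48 (-0.0027 to 0.203), Mrpl58 (-0.271 to 0.016), Mrps16 (-0.0201 to 0.247) and Mrps6 (-0.0303 to 0.192), on median centring for Mrpl12 (-0.0002) and Mrps6 (-0.0053), and on quantile normalization for Mrpl3 (0.015). The causes of these changes were not tested.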
